A study of Mus musculus with 8 samples.

Results

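The DEAD and DEAH box RNA helicases were taken here by symbol, as the 52 mouse protein-coding genes named Ddx or Dhx and a number. The rule did not use the protein sequence. They were 36 Ddx and 16 Dhx genes among the 21768 protein-coding genes outside chromosome Y in the GENCODE release M21 annotation of mm10. Their transcripts were examined in a CLIP-seq experiment (crosslinking and immunoprecipitation of a protein, followed by sequencing of the RNA fragments bound to it) on MBD5 and MBD6, a pair of proteins named for their methyl-CpG-binding domain. A peak counted as a helicase peak when its midpoint lay in the body of such a gene on the same strand, and 279 of the 29555 deposited peaks did. The cells were WT mouse embryonic stem cells (mESCs) that stably overexpressed the human coding sequence of MBD5 or MBD6 with a Flag tag, from a 3xFlag vector with hygromycin selection; no mutant, knockout or untagged cells were part of this series, and whether each line was 1 clone was not given. They were grown in serum with LIF and 2 kinase inhibitors (CHIR99021 and PD0325901) and were cleared of feeder cells by passaging on gelatin. Each protein had 2 CLIP libraries, called Flag-MBD5 CLIP 1 and 2 and Flag-MBD6 CLIP 1 and 2, and 2 digested inputs, which were left out here. The sample descriptions and the study's methods give a Flag antibody for the immunoprecipitation, while the protocol text of the labels names an MBD6 antibody.

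Helicases of both families share a core of 2 RecA-like domains that binds ATP and RNA. The 4 letters of motif II, Asp-Glu-Ala-Asp or Asp-Glu-Ala-His, give the families their names, and motifs I and VI lie near the ends of the core. DEAD box proteins open short RNA duplexes or displace proteins from RNA, and DEAH box proteins move along RNA. Between them they serve splicing, ribosome assembly, mRNA export, translation, decay and the sensing of foreign RNA, and dividing stem cells depend on many of them to make and translate RNA. Outside the core, the arms of these proteins are often long and rich in charged residues.

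Flag-MBD5 had lists of 5362 and 5388 peaks, and Flag-MBD6 had 9218 and 9587. The estimated depth was 478790 and 500143 reads against 983918 and 1111742 reads. Summit reads are the number of extended reads that covered the highest point of a peak. Over the 40 helicase sites with a peak in all 4 libraries, they agreed within sampling noise between the libraries of a protein. Chi-square per degree of freedom was 0.485 for Flag-MBD5 and 0.551 for Flag-MBD6, against 1.3 to 1.98 across proteins. That choice of sites leaves out those where a library had no peak. Over sites of the whole series it was 0.537 (683 sites) for Flag-MBD5 and 0.877 (274 sites) for Flag-MBD6. Each protein was therefore counted as 1 sample and no test between the proteins was made. Of 12 pluripotency marker genes 10 had a peak in at least 1 library, and of 10 markers of differentiated or feeder cells 1 had, Vim. RNA abundance was not measured here, and a peak needs RNA to be present, so the part of transcript abundance in every count below was not tested.

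Of the 10 helicase genes with the highest ranked sites, 4 encode ribosome biogenesis factors (Ddx10, Ddx21, Ddx24 and Ddx54), 4 encode splicing factors (Ddx23, Ddx46, Dhx38 and Ddx42), and Dhx29 and Dhx9 belong to the group of mRNA export, translation and decay. The sites below are the best site of each of the 10 helicase genes that ranked highest by fold enrichment over background among sites with a peak in all 4 libraries. They are shown, 1 site per gene, as examples of helicase RNA that both proteins brought down. Further sites of Ddx10, Ddx46, Dhx38 and Dhx29 ranked above some of them. Each sequence is written 5′ to 3′ as DNA from the GENCODE transcript. The 30 nt from the 5′ end of the peak are in capitals and the 10 nt before it in lower case. The peak used is that of the library with the highest fold enrichment at the site, and other libraries could begin elsewhere. At Ddx10 the other peaks began downstream of the capitals, at 53204335 and 53204323 with Flag-MBD5 and 53204367 with Flag-MBD6 CLIP 2. At Dhx9 and Ddx54 the Flag-MBD5 CLIP 1 peak also began downstream of them.
Ddx10: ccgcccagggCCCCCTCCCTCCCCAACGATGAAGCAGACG
Ddx21: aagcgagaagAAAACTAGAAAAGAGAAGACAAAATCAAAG
Ddx23: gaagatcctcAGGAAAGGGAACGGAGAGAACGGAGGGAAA
Dhx29: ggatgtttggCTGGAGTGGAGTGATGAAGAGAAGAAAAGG
Ddx46: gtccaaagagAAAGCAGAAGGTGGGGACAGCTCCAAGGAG
Ddx24: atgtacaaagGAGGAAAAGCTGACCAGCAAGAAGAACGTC
Dhx38: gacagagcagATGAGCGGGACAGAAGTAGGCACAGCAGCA
Dhx9: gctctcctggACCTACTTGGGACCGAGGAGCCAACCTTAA
Ddx54: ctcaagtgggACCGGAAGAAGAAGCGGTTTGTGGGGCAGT
Ddx42: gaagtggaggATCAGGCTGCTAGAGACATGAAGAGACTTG

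For 8 of these 10 sites the peak began in an exon, and in 7 of the 8 the base just before it was G, the base after which RNase T1 cuts; the exception was Ddx23, with C. For Ddx21 and Ddx24 the peak began 3 and 7 nt inside the intron before the exon, so the sequence shown starts at the first base of the exon. Reads were aligned without splicing, and a read across an exon junction can leave its first bases in the intron. Whether the reads at Ddx21 and Ddx24 did so was not tested. The 30 nt held between 7 and 20 adenines, with a median of 11. Ddx21 had the most. Ddx10 had the fewest, in a stretch with runs of C at which the Flag-MBD6 CLIP 1 peak alone began. In 8 of the 10 the adenine share was above the 27.6% of all helicase coding sequences.

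Ddx10, a nucleolar helicase of small-subunit assembly, held the highest ranked site, at chr9:53203995-53204420 on the minus strand. In Flag-MBD6 CLIP 1 it began in exon 13 of 18, at codon 538 of 875, and in the other libraries further downstream. The site had 68 and 69 summit reads with Flag-MBD5 and 129 and 132 with Flag-MBD6, which is 49.5-fold and 55.3-fold over background and 85.3-fold and 83.5-fold. The libraries of one protein were close to each other, and scaled to 1000000 estimated reads (depth-scaled summit reads) the 4 values lay between 119 and 142, the lowest in Flag-MBD6 CLIP 2. Ddx21, a nucleolar helicase of rRNA transcription and processing, followed with a broad site at chr10:62598120-62598894 on the minus strand, over exon 2 of 15. Its summit reads were 72, 67, 112 and 117 in the order Flag-MBD5 CLIP 1 and 2, Flag-MBD6 CLIP 1 and 2, an order kept for the values that follow. Ddx23, the helicase of the U5 snRNP that takes part in spliceosome activation, had its best site at chr15:98651228-98651589 on the minus strand, in exon 7 of 17, with 49, 46, 83 and 75 summit reads. All 3 sites had more summit reads in both Flag-MBD6 libraries than in either Flag-MBD5 library. Depth-scaled, the order turned: Ddx21 had 150 and 134 with Flag-MBD5 against 114 and 105 with Flag-MBD6, and Ddx23 had 102 and 92 against 84.4 and 67.5. The deposited fold enrichment kept the first order, with 58.2 and 51.7 against 73 and 68.1 for Ddx21 and 35.9 and 32.6 against 54.8 and 45.1 for Ddx23, so the direction at these sites rests on the scaling.

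Dhx29, which helps the small ribosomal subunit pass structured leaders, had 36, 36, 53 and 54 summit reads at chr13:112946800-112947306 on the plus strand, in exon 11 of 27. Its fold enrichment ran from 25.9 to 33.5, the narrowest span of the 10 sites relative to its size. Ddx46, the helicase that works with the U2 snRNP at the branch site, had 21, 25, 71 and 77 summit reads at chr13:55645378-55645578 on the plus strand, in exon 4 of 23. It stood apart from the sites above in that Flag-MBD6 was the higher also in depth-scaled reads, 72.2 and 69.3 against 43.9 and 50. Ddx24, a nucleolar helicase, had 26, 34, 32 and 48 summit reads at chr12:103408300-103408484 on the minus strand, in its last exon. The summit reads of both proteins overlapped there, while the depth-scaled values, 54.3 and 68 with Flag-MBD5 against 32.5 and 43.2 with Flag-MBD6, did not.

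Dhx38, the spliceosomal ATPase of the second step of splicing, had 26, 27, 45 and 58 summit reads at chr8:109561191-109561406 on the minus strand, in exon 4 of 27. Dhx9, a DEAH-family helicase that unwinds long double-stranded RNA, had 19, 22, 50 and 59 at chr1:153478741-153478935 on the minus strand, in exon 5 of 28. Both were higher with Flag-MBD6 in raw reads. Depth-scaled, the log2 ratio of Flag-MBD6 to Flag-MBD5 was -0.15 for Dhx38 and 0.31 for Dhx9, whose values did not overlap (39.7 and 44 against 50.8 and 53.1). Ddx54, a nucleolar helicase, had 15, 21, 38 and 39 summit reads at chr5:120626403-120626596 on the plus strand, in exon 18 of 20. Ddx42, which associates with the SF3B part of the U2 snRNP, had 17, 14, 37 and 46 at chr11:106228764-106228943 on the plus strand, in exon 4 of 18.

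**Figure D1:**
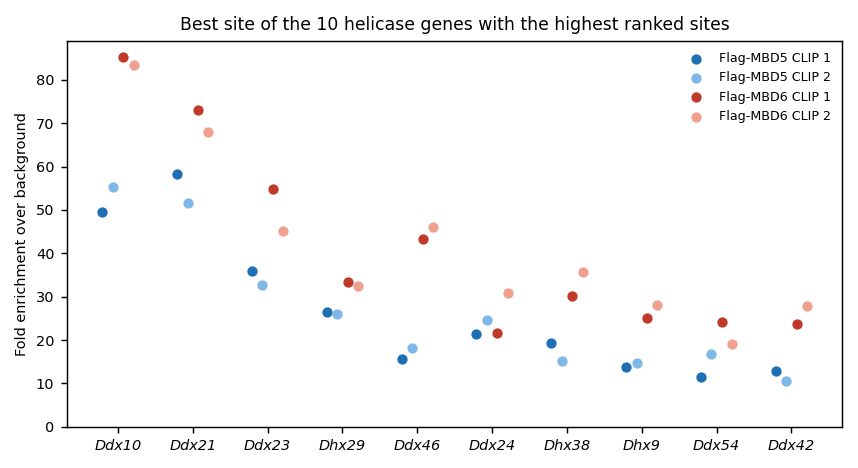
Fold enrichment over background (linear axis) at the best site of the 10 helicase genes with the highest ranked sites, 1 point per CLIP library (blue, Flag-MBD5; red, Flag-MBD6). Ddx10, first by mean rank, has 49.5 to 85.3-fold, while Ddx21 is higher in Flag-MBD5 CLIP 1 (58.2 against 49.5). Ddx24 is the gene where a Flag-MBD6 value (21.7) falls between the Flag-MBD5 values (21.5 and 24.6).

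Helicase transcripts carried peaks in more of their genes than protein-coding genes at large. Of the 52 genes, 22 and 25 had a Flag-MBD5 peak (42.3% and 48.1%), where 10.2% and 9.98% of all protein-coding genes had one. With Flag-MBD6 it was 35 and 36 genes (67.3% and 69.2%), against 16.3% and 16.7%. A reproducible region, meaning peaks of both libraries of a protein that overlap, was found in 21 helicase genes for Flag-MBD5 (40.4%, against 7.86% of all genes) and in 34 for Flag-MBD6 (65.4%, against 13.9%). All 21 Flag-MBD5 genes were among the 34 Flag-MBD6 genes, and the like share over all genes is not given here. Genes that are silent in these cells are in both denominators. As a share of peaks, helicase genes held 1.01% (95% Wilson interval 0.773 to 1.31) and 1.02% (0.785 to 1.33) of the Flag-MBD5 peaks and 0.922% (0.746 to 1.14) and 0.887% (0.718 to 1.09) of the Flag-MBD6 peaks, intervals that overlap and cover counting error only.

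Peaks were found in 26 of the 36 Ddx genes and 11 of the 16 Dhx genes. Merging the peaks of all libraries gave 78 sites over 76 kb of Ddx coding sequence and 32 sites over 49.5 kb of Dhx coding sequence, or 1.03 and 0.646 sites per kb. Of the 110 sites, 40 had a peak in all 4 libraries, on 21 genes, and 34 had a peak in a single library. The same counts over all protein-coding genes and all sites of the series are not given here, so these do not set helicase genes apart. The median length of the encoded protein was 779 residues in the 37 genes with a peak and 687 in the 15 without.

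The 14 splicing helicases were the best covered group: 13 had a peak, 13 a Flag-MBD6 region and 10 also a Flag-MBD5 region, and 20 of the 40 sites in all libraries were theirs. Ddx39b, the UAP56 helicase that acts in spliceosome assembly and mRNA export, had 5, 4, 6 and 5 peaks. Its site at chr17:35246957-35247137, in exon 4 of 10, had 33, 38, 79 and 72 summit reads. A second strong site of Ddx39b, at chr17:35243195-35243494, began in the 5′ UTR in exon 1 and had 54, 60, 88 and 87 summit reads over a higher background. Others of its sites cannot be given to the mRNA with certainty: chr17:35242715-35242867 and chr17:35247211-35247366 overlap the annotated snoRNAs Gm22589 and Gm25128, and chr17:35251271-35251462 overlaps Mir8094. Ddx46 had as many peaks in all, 3, 3, 7 and 7, and the first 7 of its 8 sites lay at or before codon 432 of 1032. Ddx23 had 3, 4, 5 and 6 peaks and Dhx38 had 5, 5, 3 and 3.

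Smaller numbers fell on the other splicing helicases. Ddx39, the near copy of Ddx39b, had 2, 3, 2 and 2 peaks, Ddx42 had 3, 2, 2 and 2, Ddx41, a C-complex spliceosome component, had 2, 1, 3 and 2, and Dhx8, which releases the spliced mRNA, had 2 in each library. Dhx15, which takes the spliceosome apart, had 1, 1, 2 and 2, Ddx17 had 1, 1, 2 and 1, and Dhx16, which acts before the first splicing step, had 1, 0, 2 and 1. Dhx40 had 0, 1, 1 and 1, and Dhx35 had none. Ddx5, a close relative of Ddx17 that also acts as a transcription coregulator, was the one gene of this group with 4 or more peaks in a library and none with Flag-MBD5: 0, 0, 4 and 5. For 2 of its 5 sites the 30 nt occurred also in the processed pseudogene Gm12183.

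Of 16 helicases of ribosome biogenesis, 12 had a peak, 6 a region of both proteins and 5 a Flag-MBD6 region alone. Ddx10 had 4 peaks in every library, and they were the same 4 sites, at codons 538, 713, 772 and 818 of 875. Ddx18, a nucleolar helicase of large-subunit assembly, had 3 in every library, at codons 4, 47 and 126 of 660; for 2 of the 3 the 30 nt occurred also in the pseudogene Gm16433. Ddx27 had 4, 2, 2 and 5 peaks over 6 sites, of which 1 was in all libraries. Ddx24 had 3, 3, 3 and 2, Ddx21 had 2, 3, 1 and 2, and Ddx54 had 2, 1, 3 and 3. A handful of peaks fell on Ddx47 (0, 1, 1 and 1), Ddx50 and Ddx55 (0, 0, 2 and 1 each), Ddx52 and Dhx37 (0, 0, 1 and 1 each) and Ddx56 (0, 0, 1 and 0). Ddx31, Ddx49, Ddx51 and Dhx33 had none.

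The 9 helicases of mRNA export, translation and decay were less evenly covered, with 8 genes that had a peak, 6 with a Flag-MBD6 region and 3 with a Flag-MBD5 region. Dhx29 had 3, 4, 4 and 3 peaks and Dhx9 had 2, 2, 5 and 5. Ddx6, which represses translation and activates decapping, had a single site at chr9:44635775-44635978 in exon 13 of 14 with 11, 10, 21 and 20 summit reads. Dhx36, which resolves G-quadruplexes, had 0, 1, 3 and 2 peaks, and Ddx1 had 0, 0, 1 and 1. Ddx3x, a translation initiation helicase on the X chromosome, had peaks in Flag-MBD6 CLIP 2 alone, 2 sites with 11 and 16 summit reads. Ddx19b, an mRNA export helicase, had 0, 0, 1 and 1, and its 30 nt occurred also in its neighbour Ddx19a, which had 0, 0, 0 and 1. Ddx25 had none.

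Among the helicases outside these groups, Ddx58, the cytoplasmic RNA sensor RIG-I, had 1, 1, 1 and 2 peaks, and its site in all libraries, at chr4:40208675-40208874 in exon 16 of 18, had 13, 11, 24 and 22 summit reads. Ddx60 and Dhx58, which act in the same antiviral pathway, had none. Ddx11, a DNA helicase of sister-chromatid cohesion, had 0, 1, 2 and 2, Dhx57 had 1 in each library and Dhx32 had 0, 0, 1 and 1. No peak fell on Ddx20, Ddx59 and Dhx34, on Ddx4 and Ddx43 of the germ line, or on Ddx28 and Dhx30 of the mitochondria. A gene without a peak can still be bound below what these lists could show: the weakest deposited peaks had 5 or 6 summit reads.

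**Figure D2:**
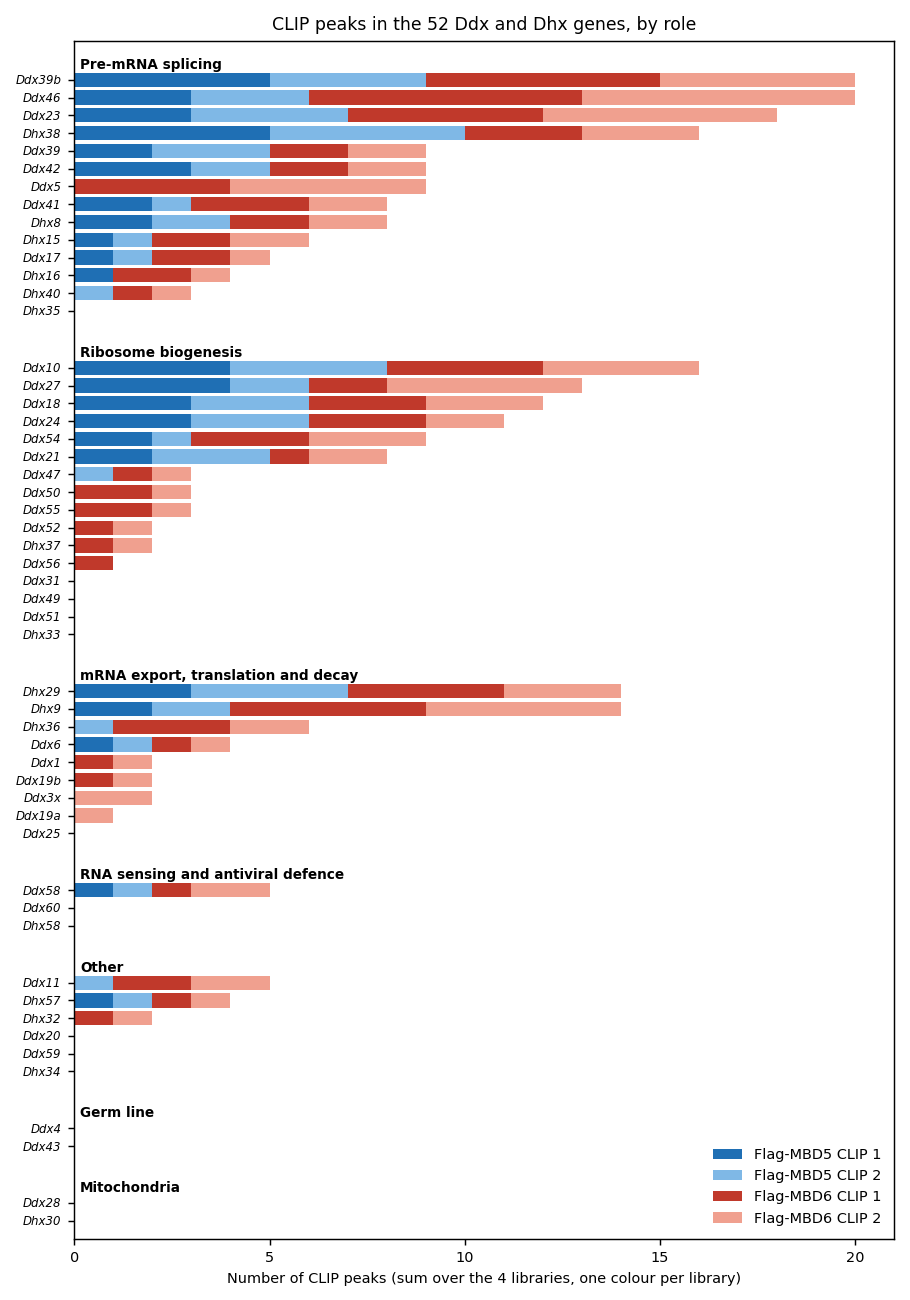
Number of CLIP peaks in each of the 52 helicase genes, stacked over the 4 libraries (blue, Flag-MBD5; red, Flag-MBD6) and grouped by role. Ddx39b and Ddx46 carry the most, the longest bar that is red alone is that of Ddx5, and 15 genes have no bar.

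The sites of Flag-MBD5 were mostly sites of Flag-MBD6, but many Flag-MBD6 sites were not matched. Of 44 Flag-MBD5 regions in helicase genes, 40 overlapped a Flag-MBD6 region (90.9%, 95% Wilson interval 78.8 to 96.4; 90% of all 4019 Flag-MBD5 regions), and the other 4, in Ddx24, Ddx27, Ddx39b and Dhx38, overlapped a peak of 1 Flag-MBD6 library. In the other direction 40 of 70 Flag-MBD6 regions overlapped a Flag-MBD5 region (57.1%, 45.5 to 68.1; 47.7% of all 7484). In terms of sites, 21 had peaks in both Flag-MBD6 libraries and none in Flag-MBD5, and 0 had peaks in both Flag-MBD5 libraries and none in Flag-MBD6. The same counts over all sites of the series are not given here, so these do not set helicase genes apart. The Flag-MBD6 libraries held 2.14 times as many estimated reads, and the larger number of its peaks cannot be told apart from that depth.

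In 13 genes only Flag-MBD6 had a region, a count without a share over all genes beside it. By mean summit reads the first 5 were Ddx11, Ddx5, Dhx16, Ddx50 and Dhx36. Ddx11 had 33 and 39 summit reads at chr17:66136280-66136527 (exon 9 of 27) and no Flag-MBD5 peak there. At the depth of Flag-MBD5 that is 16.8 reads, and 96.5% of the 2026 Flag-MBD6 regions with as many reads had a Flag-MBD5 peak. Ddx5 had 23 and 36 at chr11:106784292-106784504 (exon 9 of 13), where 13.8 reads would be left at the lower depth and 92.8% of the 2770 regions with at least as many reads had a Flag-MBD5 peak. Both shares count regions at least as strong as the one named, the stronger ones included. Ddx50 had 22 and 30 at chr10:62616152-62616322 (exon 15 of 15), with no Flag-MBD5 peak. Dhx16 (22 and 31) and Dhx36 (27 and 23) each had a peak in 1 Flag-MBD5 library, with 9 and 13 summit reads. The remaining 8 were Ddx52, Ddx55, Dhx37, Dhx32, Dhx40, Ddx19b, Ddx47 and Ddx1, with mean summit reads from 23.5 down to 10.5. The share with a Flag-MBD5 peak, counted in the same way, was 89.8% for Ddx50. It fell along these 8 from 87.5% for Ddx52 to 67.3% for Ddx1.

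Where all 4 libraries had a peak, the helicase sites of both proteins were of similar height. Scaled by the estimated reads, the log2 ratio of Flag-MBD6 to Flag-MBD5 over the 40 sites ran from -1.15 to 0.59 with a median of -0.16, and 12 sites were above 0. Over all 3566 such sites of the series the median was -0.34, a shift that the scaling can set, and relative to it the helicase median was 0.18 and 22 of 40 sites were above. With the deposited fold enrichment in place of scaled reads the median was 0.62, so the data give no direction between the proteins. A common scaling factor leaves the order among the sites as it is, but fold enrichment is no common factor and gave another order. The fold enrichment of Ddx46 in exon 5 was 15.7 and 17.5 with Flag-MBD5 against 32.8 and 25.1 with Flag-MBD6. Ddx42 in exon 4, lower in scaled reads, rose by a larger factor, from 12.8 and 10.5 to 23.6 and 27.8. The order below is that of scaled reads alone. Ddx46 held the 2 highest ratios, 0.59 and 0.57, in exons 4 and 5, and its site in exon 6 had 0.28. Dhx9 followed with 0.55 in exon 16, then Ddx42 with 0.32 in exon 4 and Dhx9 again with 0.31 in exon 5. The lowest were Ddx41, with -1.15 at chr13:55536211-55536371, where the summit reads were 17, 27, 21 and 21, and the snoRNA-overlapping site of Ddx39b, with -0.93. Single sites of Ddx41 rest on about 20 reads a library.

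**Figure D3:**
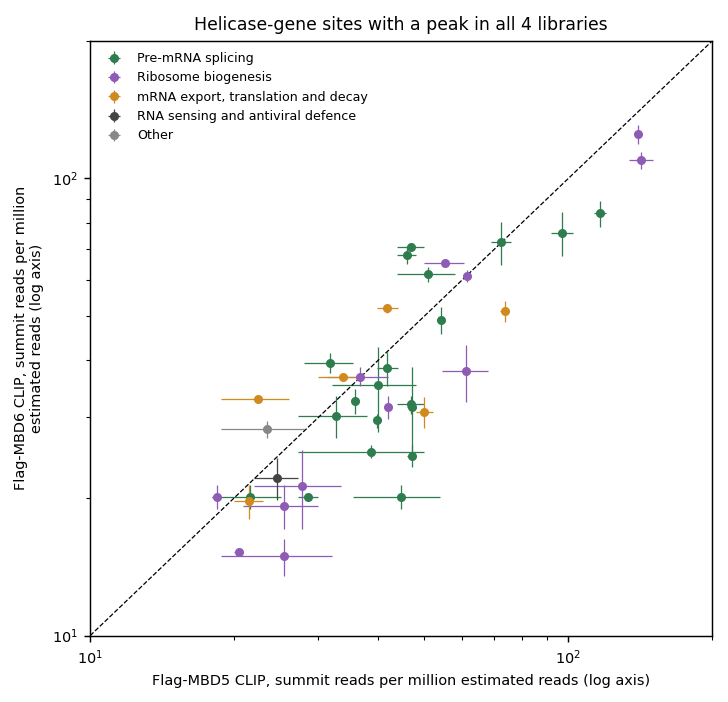
Depth-scaled summit reads (per 1000000 estimated reads) at the 40 helicase sites with a peak in all 4 libraries, Flag-MBD5 against Flag-MBD6 (both axes logarithmic), coloured by role; points are the mean of the 2 libraries, bars reach each library, and the dashed line marks equal values. Ddx10 and Ddx21 lie at the top right, between 105 and 150, and 28 of 40 points lie below the line.

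Peaks on helicase genes began in coding sequence in 85.2% to 89.1% of cases in the 4 libraries, as did 86.7% to 88.8% of all peaks in protein-coding genes. Of the 110 sites 96 began in coding sequence, 3 in a 5′ UTR, 2 in a 3′ UTR, 1 in a non-coding exon and 8 in an intron, and 7 of the 8 began within 15 nt of the next exon. Sites were not spread evenly over the proteins they encode. Motifs I, II and VI were found in 47 of the 52 proteins. In 34 proteins motif II read Asp-Glu-Ala-Asp or Asp-Glu-Ala-His, and in the others of the 47 it had different letters. A total of 100 sites of 35 genes could be placed before, within or after the stretch from motif I to motif VI. This division was chosen after the sites had been seen. Before it lay 57 sites (57%, 95% Wilson interval 47.2 to 66.3) on 29.5% of the residues, within it 19 (19%, 12.5 to 27.8) on 40.6%, and after it 24 (24%, 16.7 to 33.2) on 29.9%. That is 6.81, 1.65 and 2.82 sites per 1000 residues. Sites in all 4 libraries divided as 24, 4 and 10. Sites of 1 gene share a transcript and are no replicates, and 8 of the helicase genes had 5 or more sites. The intervals cover counting error over sites as if these were independent, and are too narrow for a statement about genes.

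The arm that carried the sites differed from gene to gene. Dhx29 had all 5 of its sites before the core, between codons 109 and 465, and Ddx18, Ddx42, Dhx8 and Dhx37 likewise had theirs before it. Ddx10 and Ddx54 had all of theirs after it. Ddx23 had 6 sites before the core and 1 inside it, at codon 567. The stretch before the core was also the one richest in charged residues in these 35 proteins, 35.1% of residues against 25.2% in the core and 27.2% after it, and its coding sequence held 30.1% adenine against 27% and 28.1%. The part of this base composition in where the sites lie was not tested.

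**Figure D4:**
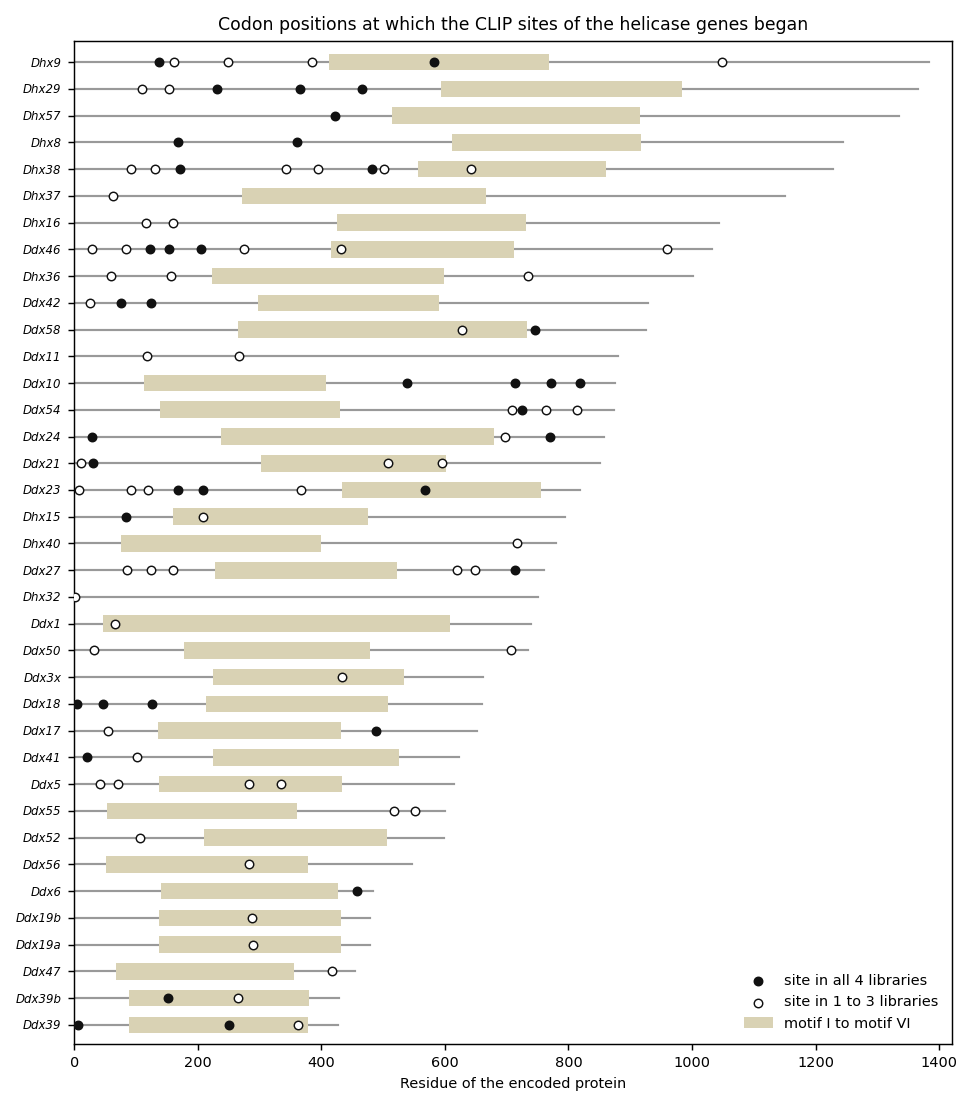
Codon at which each site began (points) along the encoded protein (grey line, residues) for the helicase genes with a site in coding sequence, with the stretch from motif I to motif VI shaded where it was found; filled points had a peak in all 4 libraries. Most points lie to the left of the shaded core, and those of Ddx10 and Ddx54 lie to its right.

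The RNA at the start of the helicase peaks held more adenine than whole helicase coding sequences. Values for all peaks in protein-coding genes, the helicase peaks included, are given beside it, and the difference between them was not tested. Over the first 30 nt, adenine made up 38.5% and 37.5% with Flag-MBD5 and 38.6% and 37.7% with Flag-MBD6, against 37.1% to 38.6% for all peaks in protein-coding genes. Whole helicase coding sequences held 27.6%. Of 109 sites with such a window, 86 were above that value, and the median was 36.7%, with a range from 16.7% to 66.7%. The base before the peak was G in 86% and 88% of the Flag-MBD5 peaks and 78.5% and 80% of the Flag-MBD6 peaks on helicase genes, against 82.9%, 82.4%, 73.5% and 72.8% of all peaks. The first base of the peak was A in 63% of 100 Flag-MBD5 and 61% of 159 Flag-MBD6 peaks on helicase genes, against 55.5% and 57.7% of all. An enzyme that cuts after G sets the base before a read, and its part in the composition downstream was not tested.

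Read in frame, these stretches encoded charged residues. Lysine, arginine, aspartate and glutamate were 48.9% to 55.5% of the codons within the first 30 nt of helicase peaks in the 4 libraries, above the 43.2% to 44% of all peaks in each of them, and above the 27.3% of whole helicase proteins. Lysine was 14.4% to 16.7%, against 13% to 13.6% of all peaks and 7.19% of whole helicase proteins. The acidic residues were 22% to 29%, against 22.9% to 23.3% and 13.2%; in Flag-MBD6 CLIP 2 the helicase value, 22%, was below that of all peaks, 22.9%. Since the same sites recur in all libraries, the 4 values are not independent.

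**Figure D5:**
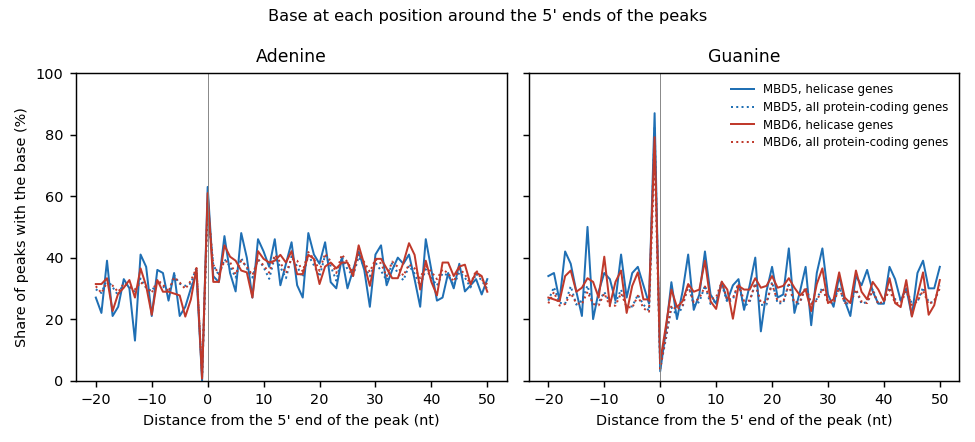
Share of peaks with adenine (left) and guanine (right) at each position from 20 nt before to 50 nt after the 5′ end of the peak, for Flag-MBD5 (blue) and Flag-MBD6 (red), on helicase genes (solid) and on all protein-coding genes (dotted). Guanine peaks at the base before the 5′ end and adenine at the first base, 63% and 61% on helicase genes, and the solid lines run around the dotted ones.

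Of 20 related helicases outside the families' naming, 14 had a peak in at least 1 library, and 9, 10, 13 and 13 had one in each. Eif4a2 and Eif4a1, the DEAD box subunits of the cap-binding translation factor, had 6, 6, 5 and 6 and 4, 5, 5 and 4 peaks, and Eif4a3 of the exon junction complex had 1 in each. The strongest Eif4a2 peak had 180 summit reads, more than any Ddx or Dhx site. Mtrex, the nuclear exosome helicase, had 3, 5, 8 and 8, and Snrnp200, the U5 snRNP helicase, had 3, 3, 4 and 4. Aqr, Ascc3, Znfx1, Helz and Dicer1 also had peaks of both proteins, and Upf1, Mov10 and Ythdc2 of Flag-MBD6. Skiv2l, Supv3l1, Ighmbp2, Ifih1, Tdrd9 and Dqx1 had none.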

How the data were processed

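Per the labels and the study's methods, RNA crosslinked to the immunoprecipitated protein was digested with RNase T1, size-selected on a gel and made into small RNA libraries. The authors clipped, filtered and collapsed the reads, removed rRNA reads, aligned the rest to mm10 with Bowtie 1.0.0 without splicing, keeping reads with several alignments and reporting 1 place, split them by strand with SAMtools 1.16.1, and called peaks per library with MACS2 (reads extended to 150 bp, genome size 130000000 bp, duplicates limited, q under 0.01). The 4 deposited peak lists give, per peak, a score (10 times −log10 q), a fold enrichment (a ratio of summit signal to background), the −log10 p and −log10 q, and the summit position. Whether the inputs served as the control behind that background is not given in the sources used here.

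The whole number of summit reads and the background rate were solved from the deposited fold and −log10 p of each peak (100% solved), and the lowest rate per strand gave the estimated reads. These are estimates, and intervals cover counting error only. The functions were tested on simulated data. Peaks were assigned by midpoint to same-strand GENCODE M21 gene bodies. Overlaps needed 1 bp. Bases, codons and protein motifs came from GENCODE transcripts, with 1 transcript per gene. The start of a site was that of its peak with the highest fold enrichment. A peak that began in an intron was placed at the next exonic base, a choice made after the data were seen. Percentages are described without tests, since the libraries of a protein counted as 1 sample; n is then 1 per protein and no p-value is given. The members, roles, related helicases and markers were chosen with earlier results of these data known. Every member is named with its peaks. The first 10 members by mean rank of fold enrichment at their best site in all 4 libraries, and up to 5 members with a region of 1 protein only, by mean summit reads, are given in full. The values of 1 related helicase are not reported here. Alternatives changed the q threshold, fold minimum, list size, position, strand, overlap, scaling, window and libraries. Python 3.11.15, pandas 2.3.3, scipy 1.17.1 and biopython 1.88 were used.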

Additional observations from a re-analysis of the deposited data

How the results depend on the processing

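No paired analysis was possible because the results come from no test. The libraries of a protein, which differed by less than sampling noise at the sites compared, were counted here as 1 sample. A test over libraries was not run. Of 105 values under alternatives, 89 stayed within a set bound. A count had to stay within 1.5 times, a share within its interval, and the log2 ratio and adenine share within 1 standard deviation between libraries. With 2 libraries per protein, leaving 1 out keeps the adenine share inside that bound by construction. The 89 values include all counts of genes with a peak or a region. Leaving out 1 library at a time gave 22 to 25 genes with a peak for Flag-MBD5 and 35 to 36 for Flag-MBD6. With 1 library of a protein left, each of its peaks counted as a region. The counts of genes with a region were therefore again 22 to 25 and 35 to 36, and they cannot speak to reproducibility. Overlaps, with such single-library regions for the protein that lost a library, were 81.5% to 95.5% and 49.4% to 64.3%. Shares of peaks were 1.01% to 1.02% and 0.887% to 0.922%. Coding starts were 85.2% to 89.1% and 88.2%, and adenine was 37.5% to 38.5% and 37.7% to 38.6%. With each library left out in turn the median log2 ratio was -0.28 to -0.07, lowest without Flag-MBD6 CLIP 1. It reversed to 0.62 with fold enrichment in place of scaled reads and to 0.18 relative to all shared sites, and it was -0.37 over the 18 sites with at least 20 reads in every library. With as many peaks from each library, helicase genes held 1.08% of the Flag-MBD6 peaks instead of 0.904%, and 29 instead of 34 genes had a Flag-MBD6 region. The overlap was then 81.8% of Flag-MBD5 and 67.9% of Flag-MBD6 regions, instead of 90.9% and 57.1%. Counting a peak in either library of the other protein raised the overlap to 100% of Flag-MBD5 and 70% of Flag-MBD6 regions, as its construction allows. Classed at the midpoint, 60.6% and 57.6% of helicase peaks lay in coding sequence, and at the summit 69.7% and 67.6%. At 15 nt inside the 5′ end it was 93.5% for Flag-MBD6. Reads were extended to 150 bp, and the part of that extension in these shares was not tested. Adenine was 39.4% and 38.8% in 20 nt and 36.5% and 37.3% in 50 nt. Leaving out regions whose 30 nt occur in another gene, an alternative chosen after seeing the data, left 21 and 33 genes with a region.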
